A study of Mus musculus with 12 samples.

Results

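The genes described here are the 30 mouse major histocompatibility complex (MHC) class I heavy chain genes measured in this series of thymic epithelial cells (TEC), out of 34677 genes in the deposited gene table. They were selected by name, as H2-K1, H2-D1, H2-Bl and every symbol that starts with H2-Q, H2-T or H2-M followed by a number, and the naming rule uses no measured value. They comprised 2 classical genes (H2-K1 and H2-D1), 8 H2-Q genes, 5 H2-T genes, 14 H2-M genes and H2-Bl. In GENCODE M21, built on GRCm38, 24 of them are listed as protein-coding and 6 as pseudogenes, the latter being H2-Q3, H2-Q5, H2-Bl, H2-T10, H2-M10.5-ps1 and H2-M6-ps. All 30 lie on chromosome 17, between 33996017 (the lower end of H2-K1) and 37483552 (the upper end of H2-M2). The results turn mainly on H2-Q6 (ENSMUSG00000073409, chr17:35424850-35430055, plus strand), H2-Q7 (ENSMUSG00000060550, chr17:35439155-35443773, plus strand), H2-T10 (ENSMUSG00000079491, chr17:36115876-36121465, minus strand), H2-T3 (ENSMUSG00000054128, chr17:36185572-36190287, minus strand), H2-M10.5 (ENSMUSG00000037246, chr17:36772910-36776234, plus strand) and H2-M2 (ENSMUSG00000016283, chr17:37480851-37483552, minus strand).

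RNA was measured in 12 libraries of sorted cortical TEC (cTEC) and medullary TEC (mTEC), with 3 libraries each from wild-type (WT) and Aβ0/0 mice in each subset. Every library came from a pool of 5 to 10 mice of 4 to 6 weeks of age. WT mice were C57BL/6 animals bought from a breeder, while Aβ0/0 mice carry a disrupted H2-Ab1, the gene of the MHC class II β chain, came from another laboratory and lack MHC class II, in TEC as in all other cells. Among Epcam+CD45- cells, those that were Ly51+UEA1- were sorted as cTEC and those that were Ly51-UEA1+ as mTEC. The mTEC pools of Aβ0/0 mice held fewer sorted cells than those of WT mice, so cell number and genotype cannot be told apart in mTEC. Aβ0/0 cTEC pools also held fewer cells than the WT cTEC pools of the same replicate number. In both genotypes mTEC pools held more cells than the cTEC pools of the same number, so cell number and subset cannot be told apart either. H2-Ab1 lies among the genes described here, which span from 0.265 Mb on its one side (H2-K1) to 3.219 Mb on its other side (H2-M2). The strain on which Aβ0/0 was kept is not given in the sources used here, so loss of MHC class II and any sequence that came with the disrupted gene cannot be told apart.

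The estimated counts of a library summed to between 21710319 and 36139815. H2-Ab1 RNA, which the disrupted gene still gave, was between 9055 and 11966 transcripts-per-million units (TPM) in the 6 WT libraries and between 2469 and 3956 TPM in the 6 Aβ0/0 libraries, so each library stood on the side of its label. The summed level of 10 cTEC markers was at least 9241 TPM in cTEC and at most 2680.5 TPM in mTEC, and that of 11 mTEC markers was at least 18364 TPM in mTEC and at most 5269 TPM in cTEC. RNA of other cells was also present. The sum of 15 thymocyte markers was 292 to 784 TPM in WT cTEC, 878 to 1005 TPM in Aβ0/0 cTEC, 122 to 204 TPM in WT mTEC and 38.2 to 169 TPM in Aβ0/0 mTEC. The sum of 14 dendritic cell, macrophage and B cell markers was 41.9 to 376 TPM in WT cTEC, 53.3 to 75.0 TPM in Aβ0/0 cTEC, 656 to 718 TPM in WT mTEC and 119 to 775 TPM in Aβ0/0 mTEC, where Itgax and Adgre1 were at 0 in all 3 libraries. In mTEC this sum was mostly Lyz2, at 626, 585 and 605 TPM in WT and 740, 104 and 107 TPM in Aβ0/0. Each of the 14 markers had a lower mean in Aβ0/0 mTEC than in WT mTEC, with overlap of libraries for some, Lyz2 among them. The sum of 6 fibroblast markers was at least 1644 TPM in cTEC and at most 265 TPM in mTEC, which was mostly Dcn. Col3a1 and Lum were also higher in WT cTEC than in WT mTEC without overlap, with means of 97.0 against 9.83 TPM and 24.4 against 4.60 TPM. Pdgfra, Pdgfrb and Col1a1 were not higher in WT cTEC than in WT mTEC on average. The part of these cells in the results below was not tested, and in such bulk samples fewer cells of a type and less RNA per cell cannot be told apart.

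MHC class I molecules pair a heavy chain with β2-microglobulin and carry short peptides from inside the cell to its surface. The classical molecules, H2-K and H2-D, present these peptides to CD8+ T cells, and on cTEC and mTEC they take part in the positive and negative selection of CD8+ thymocytes. The nonclassical genes encode molecules with a narrower set of ligands or receptors, among them Qa-1 (H2-T23), Qa-2 (H2-Q6 and H2-Q7), the thymus leukaemia antigen (H2-T3), the γδ T cell ligands H2-T10 and H2-T22, and H2-M3, which binds peptides with a formylated end. The H2-M1, H2-M9 and H2-M10 genes are known from sensory neurons of the vomeronasal organ.

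The levels of the 30 genes spread from 0 to 5445 TPM. TPM correct for transcript length and are used here wherever levels of different genes are set side by side. Of the 30 genes, 23 had counts enough for a test in at least 1 comparison between 2 groups and also reached a group mean of 1 TPM, and they are described below. The other 7 (H2-M10.2, H2-M10.3, H2-M10.4, H2-M10.5-ps1, H2-M10.6, H2-M11 and H2-M6-ps) stayed at or under a group mean of 0.907 TPM. The highest count among them, 92, was that of H2-M10.4 in WT mTEC replicate 2, and H2-M10.4 had no count in any other library. H2-K1, H2-D1 and H2-T23 were at 976 TPM or more in every library, and H2-T22, H2-T10, H2-Q6, H2-Q7, H2-M3, H2-M2, H2-Q5, H2-Q2 and H2-Q4 at 12.5 TPM or more. Of the others, H2-T24 was at 8.41 to 20.3 TPM, H2-Bl at 1.43 to 13.5 TPM and H2-Q3 at 0 to 4.28 TPM, with overlap between all 4 groups for H2-Q3. H2-M1, H2-M9, H2-M10.1 and H2-M10.5 were above 1 TPM in all 3 WT mTEC libraries and, with the exception of H2-M10.1 in Aβ0/0 mTEC replicate 1, in no other library.

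**Figure D1:**
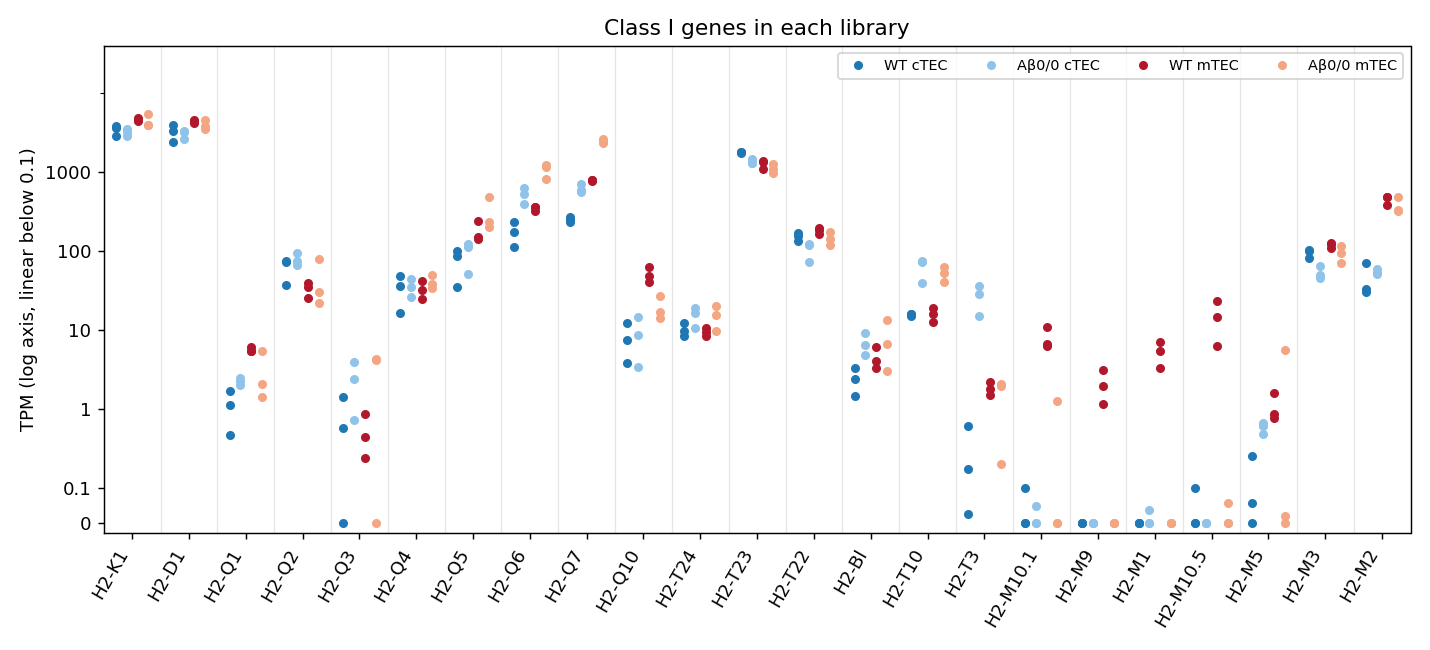
TPM of the 23 class I genes with a testable level in each of the 12 libraries, on an axis that is logarithmic above 0.1 and linear below, with 1 point per library and 1 colour per group. H2-K1 and H2-D1 lie between 2433 and 5445 TPM in all libraries, whereas H2-M9 and H2-M1 are at 0 in all 3 Aβ0/0 mTEC libraries.

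Class I heavy chain RNA as a whole was more abundant in mTEC than in cTEC libraries. The 30 genes summed to 9424 ± 1416 TPM in WT cTEC, 9341 ± 915 TPM in Aβ0/0 cTEC, 12640.1 ± 252 TPM in WT mTEC and 14291 ± 1876 TPM in Aβ0/0 mTEC (SD, n = 3 each), and no mTEC library was below any cTEC library. The classical genes held 70.8% ± 3.34 of that sum in WT cTEC, 67.2% ± 2.08 in Aβ0/0 cTEC, 71.9% ± 0.867 in WT mTEC and 59.3% ± 2.23 in Aβ0/0 mTEC. Their share in the 3 Aβ0/0 mTEC libraries, 61.7%, 58.9% and 57.3%, was below that of all other libraries. H2-Q6 and H2-Q7 together held 4.56% ± 0.333 in WT cTEC, 12.3% ± 1.28 in Aβ0/0 cTEC, 9.03% ± 0.186 in WT mTEC and 25.0% ± 1.52 in Aβ0/0 mTEC, with no overlap between any pair of these groups. The share of H2-T23 was lower in mTEC in both genotypes, with 19.4% ± 3.39 in WT cTEC and 10.2% ± 1.20 in WT mTEC (SD, n = 3). In Aβ0/0 it was 14.6% ± 1.38 in cTEC (SD, n = 3) and 5.96%, 8.64% and 9.41% in mTEC. These sums and shares are given as a description, without a test.

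**Figure D2:**
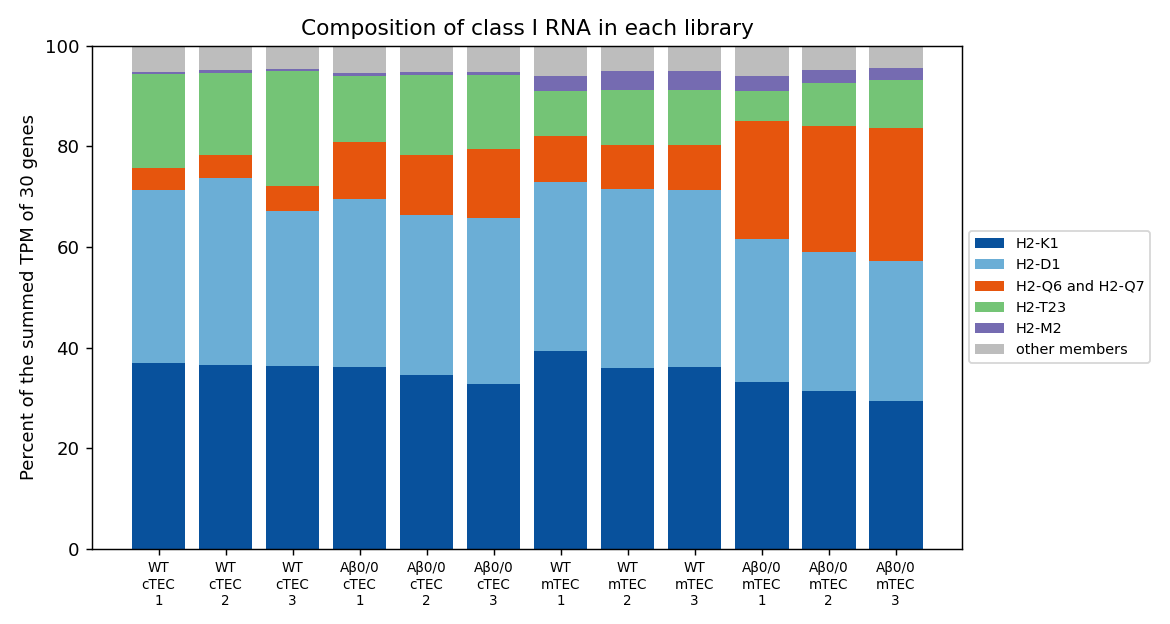
Share of each gene or pair of genes in the summed TPM of the 30 class I genes, in percent, as 1 stacked bar per library. The orange segment of H2-Q6 and H2-Q7 spans 4.24% to 4.90% in WT cTEC and 23.5% to 26.5% in Aβ0/0 mTEC, and the blue segments of H2-K1 and H2-D1 are shortest in the 3 Aβ0/0 mTEC libraries.

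The log2 fold changes of the classical genes lay between -0.03 and 0.68 in the comparisons of 2 groups. H2-K1 was at 3600.2, 3884 and 2859.6 TPM in the 3 WT cTEC libraries, at 3555, 2855 and 3250.4 in Aβ0/0 cTEC, at 4893, 4522 and 4659 in WT mTEC and at 5445, 3997 and 4025 in Aβ0/0 mTEC. H2-D1 was at 3350.0, 3979 and 2433 TPM in WT cTEC, at 3295, 2643 and 3254 in Aβ0/0 cTEC, at 4178, 4457 and 4564 in WT mTEC and at 4660.0, 3526 and 3831 in Aβ0/0 mTEC. For both genes the mTEC libraries lay above the cTEC libraries of the same genotype, and the genotypes overlapped in either subset. The log2 fold change of mTEC over cTEC was 0.52 ± 0.25 (SE) for H2-K1 and 0.55 ± 0.26 for H2-D1 in WT, which did not pass edgeR's quasi-likelihood test (Benjamini-Hochberg adjusted p = 0.163 and 0.164, as all adjusted p below). In Aβ0/0 it was 0.68 ± 0.21 and 0.59 ± 0.21 (edgeR adjusted p = 0.122 and 0.176), and H2-K1 passed with the pool of both subsets as a block (0.68 ± 0.11, edgeR adjusted p = 0.0405). DESeq2 called both genes higher in mTEC, in WT (DESeq2 adjusted p = 0.00311 for H2-K1 and 0.00873 for H2-D1) and in Aβ0/0 (DESeq2 adjusted p = 0.00207 and 0.00836). WT over Aβ0/0 was -0.03 ± 0.15 for H2-K1 and 0.08 ± 0.17 for H2-D1 in mTEC, and 0.17 ± 0.27 for both in cTEC. H2-K1 and H2-D1 also stood close to each other, with an H2-K1 to H2-D1 ratio in TPM between 0.976 and 1.18 over the 12 libraries.

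The stretches before the starts of these genes have a known layout, with an NF-κB site, an interferon-stimulated response element bound by IRF factors and, closer to the gene, boxes bound by the complex that recruits Nlrc5, the class I transactivator. RefSeq windows of GRCm38.p6 were found for 22 of the 30 genes, and the 250 bases before the start are printed for 4 of them: H2-K1 as a classical gene, H2-Q6 and H2-Q7 as abundant genes that passed between the subsets and, in mTEC, between the genotypes, and H2-M10.5 as the most abundant of those with counts mainly in WT mTEC. They lie at chr17:34000348-34000597 (minus strand), chr17:35424600-35424849, chr17:35438905-35439154 and chr17:36772660-36772909 (plus strand), upstream of the annotated exons, and are written 5′ to 3′ on the strand of the gene. Capitals mark matches on either strand to the κB consensus bound by NF-κB, AANNGAAA (IRF core), TGACG (core of the cyclic AMP response element) and CCAAT. No motif overlaps another one here, but in H2-K1 and H2-Q6 the κB consensus matches on both strands, 1 base apart.
H2-K1: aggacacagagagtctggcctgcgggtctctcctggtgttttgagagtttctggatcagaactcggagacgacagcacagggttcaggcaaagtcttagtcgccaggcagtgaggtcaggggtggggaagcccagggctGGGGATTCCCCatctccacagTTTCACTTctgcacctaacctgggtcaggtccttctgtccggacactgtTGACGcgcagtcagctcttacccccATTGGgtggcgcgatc
H2-Q6: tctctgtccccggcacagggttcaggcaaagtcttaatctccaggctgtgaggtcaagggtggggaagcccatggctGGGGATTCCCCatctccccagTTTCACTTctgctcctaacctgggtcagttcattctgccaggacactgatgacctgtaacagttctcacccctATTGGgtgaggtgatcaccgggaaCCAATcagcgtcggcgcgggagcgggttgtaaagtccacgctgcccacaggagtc
H2-Q7: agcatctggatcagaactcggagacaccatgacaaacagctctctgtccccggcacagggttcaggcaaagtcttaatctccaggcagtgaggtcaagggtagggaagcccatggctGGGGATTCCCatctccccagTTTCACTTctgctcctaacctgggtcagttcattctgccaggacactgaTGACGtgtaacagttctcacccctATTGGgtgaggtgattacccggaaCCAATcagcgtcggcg
H2-M10.5: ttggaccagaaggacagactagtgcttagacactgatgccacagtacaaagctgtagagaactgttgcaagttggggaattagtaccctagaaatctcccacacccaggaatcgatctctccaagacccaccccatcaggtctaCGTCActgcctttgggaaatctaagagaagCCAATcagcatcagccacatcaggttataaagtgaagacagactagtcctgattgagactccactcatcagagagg
The κB match began 111 bases before the start of H2-K1, 173 before that of H2-Q6 and 133 before that of H2-Q7. A match was found in 8 of the 22 windows, the others being those of H2-D1, H2-Q4, H2-T22, H2-M3 and H2-M2, and in 7.01% of 27025 mouse windows of the same length. The IRF letters were in 14 of the 22 windows and in 21.6% of all windows, the cyclic AMP letters in 11 and in 17.9%, and CCAAT in 19 and in 34.5%. The H2-M10.5 window held CCAAT and the cyclic AMP letters and no match to the κB consensus or the IRF letters. It was identical to the H2-M10.3 window at 91.6% of the bases and to that of H2-M10.1 at 85.6%, while those of H2-Q6 and H2-Q7 were identical at 82.0% and those of H2-K1 and H2-Q7 at 72.0%.

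In WT, a number of class I genes were higher in mTEC than in cTEC. Of 22 genes tested, 12 passed the threshold of 0.05 with a higher level in mTEC, against 18.0% of all 18667 genes tested, and 0 passed with a lower level, against 8.81%. The 0 lower genes compare with 1 (H2-Q2) by DESeq2. With edgeR 13 of the 22 genes had an unadjusted p under 0.05, against 6947 of all 18667 genes tested. The median log2 fold change was 1.26 over the 22 genes and 0.06 over all genes tested. By family, 5 of 7 H2-Q genes, 1 of 5 H2-T genes, 6 of 7 H2-M genes, 0 of 2 classical genes and not H2-Bl were among the 12. H2-T3, H2-M1, H2-M5, H2-M9, H2-M10.1 and H2-M10.5 had enough counts for this test only through the WT mTEC libraries, so their difference is set in part by the filter and these counts are a description. Among the other 16 genes, 6 were higher in mTEC and the median log2 fold change was 0.54.

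**Figure D3:**
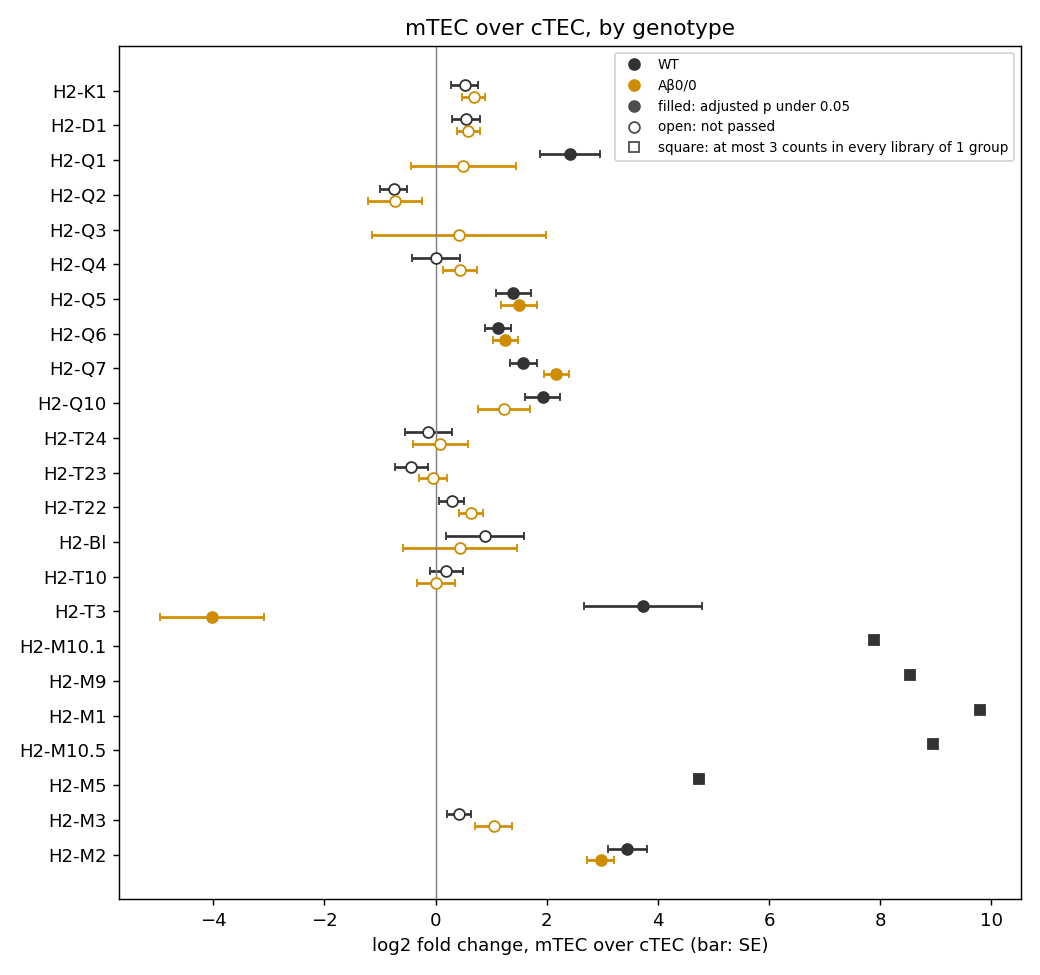
Log2 fold change of mTEC over cTEC from the estimated counts for each class I gene, in WT (black) and Aβ0/0 (orange), with its SE as a bar and filled symbols for an adjusted p under 0.05. Squares mark genes with at most 3 counts in every library of 1 group, whose fitted value is no bound, and H2-T3 is the gene whose values stand on opposite sides of 0 with both symbols filled (3.73 and -4.02).

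The difference was largest among the abundant genes for H2-M2, a class I gene at the far end of the cluster. It was at 33.4, 70.0 and 30.3 TPM in WT cTEC, 52.7, 51.5 and 58.4 in Aβ0/0 cTEC, 383, 483 and 489 in WT mTEC and 478, 321 and 332 in Aβ0/0 mTEC. All mTEC libraries lay above all cTEC libraries in both genotypes. Its log2 fold change of mTEC over cTEC was 3.45 ± 0.35 in WT (edgeR adjusted p = 0.000713) and 2.97 ± 0.24 in Aβ0/0 (edgeR adjusted p = 0.00178), and 96.9% of its 31-base stretches occur in no other gene.

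Among the H2-Q genes, the Qa-2 genes H2-Q6 and H2-Q7 rose in mTEC in both genotypes. H2-Q6 was at 176, 232 and 113 TPM in WT cTEC and 362, 325 and 359 in WT mTEC, a log2 fold change of 1.12 ± 0.23 (edgeR adjusted p = 0.00849). H2-Q7 was at 237, 252 and 273 TPM in WT cTEC and 786, 788 and 804 in WT mTEC, a log2 fold change of 1.58 ± 0.24 (edgeR adjusted p = 0.00336). The 2 subsets did not overlap for either gene. H2-Q5, a pseudogene that shares 43.2% of its 31-base stretches with H2-Q7, rose by 1.40 ± 0.32 (edgeR adjusted p = 0.0141), with 87.0, 102 and 34.9 TPM in WT cTEC and 238, 141 and 153 in WT mTEC. H2-Q1, at 1.67, 1.12 and 0.467 TPM in WT cTEC and 5.42, 6.00 and 5.48 in WT mTEC, rose by 2.42 ± 0.54 (edgeR adjusted p = 0.012). Its near-identical copy H2-Q2 was more abundant and lay on the other side, with 74.7, 72.8 and 37.5 TPM in WT cTEC and 39.8, 25.2 and 35.5 in WT mTEC (log2 fold change -0.75 ± 0.24, edgeR adjusted p = 0.0521). Summed with H2-Q2, H2-Q1 no longer passed (log2 fold change -0.33 ± 0.22, edgeR adjusted p = 0.319). H2-Q4 was at 33.5 ± 15.9 TPM in WT cTEC and 33.0 ± 8.77 in WT mTEC (SD, n = 3).

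H2-Q10, which encodes a class I molecule secreted by the liver, was at 7.48, 12.2 and 3.78 TPM in WT cTEC and 63.7, 48.5 and 40.8 in WT mTEC. The groups did not overlap, and the log2 fold change was 1.93 ± 0.32 (edgeR adjusted p = 0.00441). Its protein-coding transcript had 1193, 1492 and 1121 estimated counts in WT mTEC, 3, 99 and 38 in WT cTEC, 108, 278 and 0 in Aβ0/0 mTEC and 0, 0 and 79 in Aβ0/0 cTEC. The remaining counts of the gene fell on a transcript with a retained intron, which had 826, 1190 and 1044 counts in WT mTEC and 1791, 1169 and 1353 in Aβ0/0 mTEC. The coding transcript was thus higher in each WT mTEC library than in any other library. The gene's counts-per-million (CPM) values in mTEC overlapped between genotypes while its TPM did not (log2 fold change of WT over Aβ0/0 0.40 ± 0.23, edgeR adjusted p = 0.525). H2-Q10 shares 21.9% of its 31-base stretches with H2-Q7, so the split between transcripts is uncertain.

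4 H2-M genes that are known from vomeronasal neurons, H2-M1, H2-M9, H2-M10.1 and H2-M10.5, had counts in all WT mTEC libraries and few or none in WT cTEC. H2-M10.5 was at 23.2, 14.7 and 6.25 TPM in WT mTEC, H2-M10.1 at 10.9, 6.35 and 6.61, H2-M1 at 7.02, 5.42 and 3.29 and H2-M9 at 3.13, 1.95 and 1.16. H2-M1 and H2-M9 had no count in any WT cTEC library. Against a floor of 3 counts in each library, their mean CPM was at least 36.2-fold higher in WT mTEC for H2-M1 and at least 15.2-fold higher for H2-M9. H2-M10.5 had 1233 counts in WT mTEC and 2 in WT cTEC, a ratio of 594 with a 95% exact counting interval of 164 to 4911. H2-M10.1 had 602 and 2 counts, a ratio of 290.0 with an interval of 79.9 to 2400. H2-M5 had 44, 50 and 26 counts in WT mTEC and 2, 2 and 0 in WT cTEC. These 5 genes reached the count filter in no WT cTEC library, so that their passing the test adds nothing to these counts. Such intervals and floors cover counting error only, since reads copied by PCR are not independent molecules.

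Among the H2-T genes and H2-M3, only H2-T3 passed between the WT subsets with edgeR. H2-T23, which encodes the Qa-1 molecule that presents leader peptides of classical class I molecules to NKG2A receptors, was at 1829, 1739 and 1814 TPM in WT cTEC and 1092, 1360.5 and 1405 in WT mTEC. The cTEC libraries were the higher ones without overlap, yet the difference did not pass (log2 fold change -0.43 ± 0.29, edgeR adjusted p = 0.33). H2-M3 was at 95.1 ± 11.4 TPM in WT cTEC and 121 ± 8.91 in WT mTEC, H2-T22 at 153 ± 17.5 and 184 ± 16.7, and H2-T10 at 15.6 ± 0.461 and 15.8 ± 3.16 (SD, n = 3), and none of them passed, nor did H2-T24, at 9.70, 12.3 and 8.43 TPM in WT cTEC and 8.41, 9.29 and 10.6 in WT mTEC. H2-T3, one of the genes that reached the count filter through mTEC, rose from 0.599, 0.175 and 0.0242 TPM in WT cTEC to 1.80, 2.18 and 1.51 in WT mTEC (log2 fold change 3.73 ± 1.06, edgeR adjusted p = 0.0338). With the pool of mice as a block, 9 of the 22 genes passed, and H2-T3, H2-M5 and H2-M9 no longer did (edgeR adjusted p = 0.0685, 0.0525 and 0.0507).

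In Aβ0/0, 18 class I genes were tested between the subsets. 4 were higher in mTEC (H2-M2, H2-Q5, H2-Q6 and H2-Q7), against 3.45% of all 15687 genes tested, and 1 was lower (H2-T3), against 2.15%. The median log2 fold change was 0.55 over the 18 genes and 0.03 over all genes. H2-T3 reached the count filter through the cTEC libraries, where it is high, and H2-Q3 reached it in 2 libraries of each subset, so the filter sets part of the difference of H2-T3. Among the other 16 genes, 4 were higher in mTEC and the median was 0.61. H2-Q6 was at 535, 393 and 636 TPM in Aβ0/0 cTEC and 1241, 823 and 1164 in Aβ0/0 mTEC, a log2 fold change of 1.25 ± 0.23 (edgeR adjusted p = 0.0223). H2-Q7 was at 569, 591 and 719 TPM in Aβ0/0 cTEC and 2605, 2376 and 2474 in Aβ0/0 mTEC, a log2 fold change of 2.17 ± 0.22 (edgeR adjusted p = 0.00386). H2-Q7 thereby reached between 47.8% and 61.5% of the level of H2-K1 in Aβ0/0 mTEC, whereas it reached between 16.1% and 17.4% in WT mTEC. H2-Q5, at 113, 51.5 and 124 TPM in Aβ0/0 cTEC and 483, 235 and 199 in Aβ0/0 mTEC, rose by 1.50 ± 0.32 (edgeR adjusted p = 0.0385).

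H2-T3, the thymus leukaemia antigen, which binds CD8αα and is best known from the intestinal epithelium, was the gene that was lower in mTEC of Aβ0/0 mice. It was at 28.2, 36.3 and 14.8 TPM in Aβ0/0 cTEC and at 1.96, 0.201 and 2.05 in Aβ0/0 mTEC, so that the cTEC libraries stood above all others of the series. The log2 fold change of mTEC over cTEC was -4.02 ± 0.94 (edgeR adjusted p = 0.0496). With the pool as a block H2-Q5 and H2-T3 no longer passed (edgeR adjusted p = 0.0502 and 0.137), and leaving out any 1 of the 6 libraries left 2 genes, H2-M2 and H2-Q7.

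Between genotypes in mTEC, 22 genes were tested. 3 were higher in WT (H2-M1, H2-M9 and H2-M10.5), against 5.32% of all 18636 genes tested, and 3 were higher in Aβ0/0 (H2-Q6, H2-Q7 and H2-T10), against 0.338%. The median log2 fold change of WT over Aβ0/0 was 0.07 over the 22 genes and 0.00257 over all genes. H2-T3, H2-M1, H2-M5, H2-M9, H2-M10.1 and H2-M10.5 reached the count filter here through the WT libraries, which makes their number a description. Among the other 16 genes, 3 were higher in Aβ0/0 and the median log2 fold change was -0.22. With near-identical genes summed, 19 were tested, of which 3 were higher in WT and 1 (H2-Q6 with H2-Q7) was higher in Aβ0/0. Of all 18633 genes in that fit, 989 were higher in WT and 60 in Aβ0/0.

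**Figure D4:**
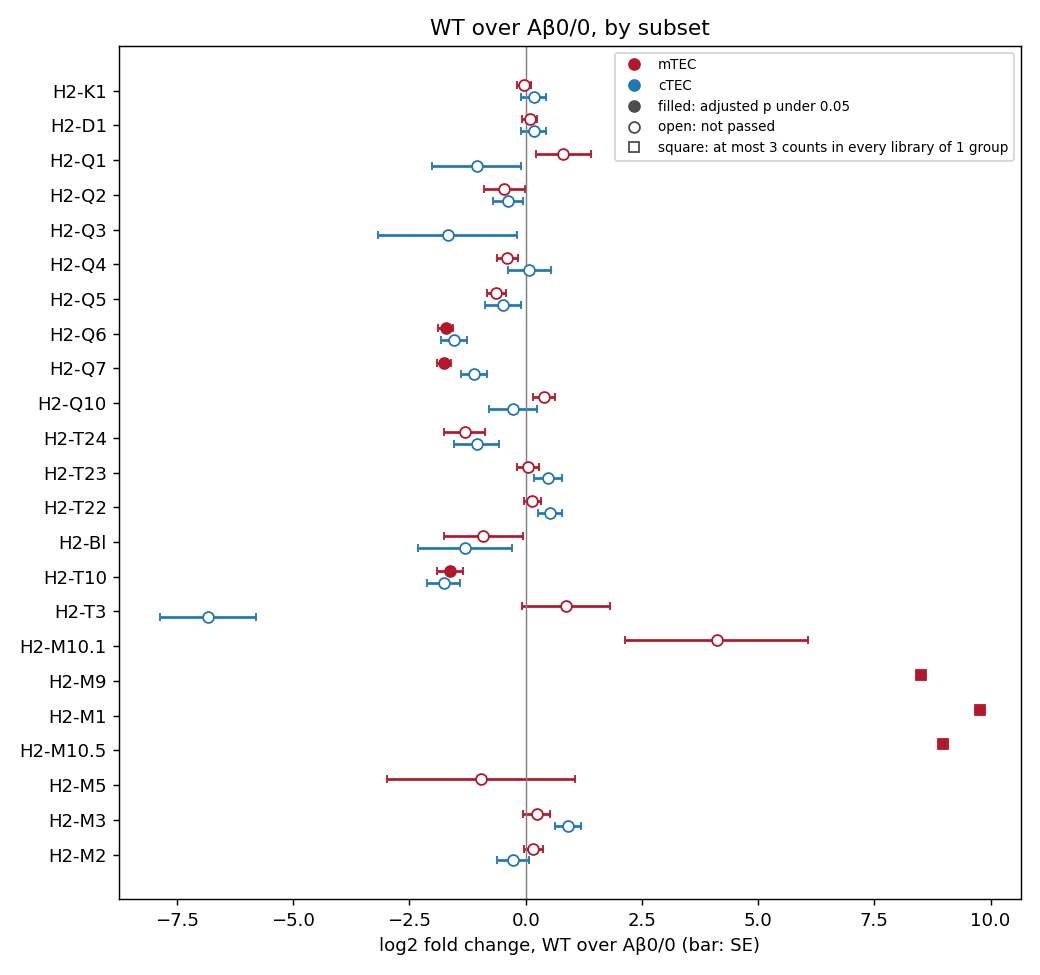
Log2 fold change of WT over Aβ0/0 from the estimated counts for each class I gene, in mTEC (red) and cTEC (blue), with its SE as a bar and filled symbols for an adjusted p under 0.05. H2-Q6, H2-Q7 and H2-T10 lie below -1 in both subsets, H2-K1 and H2-D1 lie near 0, and the squares of H2-M1, H2-M9 and H2-M10.5, with at most 3 counts in every Aβ0/0 mTEC library, are no bound.

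The TPM of H2-Q6 and H2-Q7 in mTEC, given above, did not overlap between genotypes. Both were higher in Aβ0/0, H2-Q6 3.29-fold (log2 fold change of WT over Aβ0/0 -1.72 ± 0.16, edgeR adjusted p = 0.0337) and H2-Q7 3.38-fold (-1.76 ± 0.15, edgeR adjusted p = 0.0255). Neither passed with the replicate number as a block, a fit in which 0 of all 18636 genes tested passed. Their protein-coding transcripts were 95.9% identical where they aligned, and only 48.3% of the 31-base stretches of H2-Q6 and 60.8% of those of H2-Q7 occur in no other gene, so reads can be shared between them and with H2-Q4, H2-Q5 and H2-Q10. Summed, H2-Q6 and H2-Q7 were still higher in Aβ0/0 (-1.74 ± 0.15, edgeR adjusted p = 0.0284). Of the 6 H2-Q7 transcripts with at least 100 counts in some library, 4 were higher in every Aβ0/0 than in every WT mTEC library, and the same number were so in cTEC.

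H2-T10 was at 12.5, 16.0 and 18.8 TPM in WT mTEC and 63.5, 40.5 and 52.6 in Aβ0/0 mTEC, without overlap (log2 fold change -1.63 ± 0.27, edgeR adjusted p = 0.0352). H2-T22, its near-identical copy (96.9%), was at 166, 186 and 199 TPM in WT mTEC and 176, 121 and 141 in Aβ0/0 mTEC, where the genotypes overlapped. H2-T10 shares 47.6% of its 31-base stretches with H2-T22, and their sum did not differ beyond its error (-0.15 ± 0.18, edgeR adjusted p = 0.811). The share of H2-T22 counts on protein-coding transcripts also differed between genotypes, with 87.0% to 88.8% in WT and 55.3% to 76.6% in Aβ0/0 mTEC. That of H2-T10 was at most 16.2% in WT and at least 37.2% in Aβ0/0 mTEC.

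**Figure D5:**
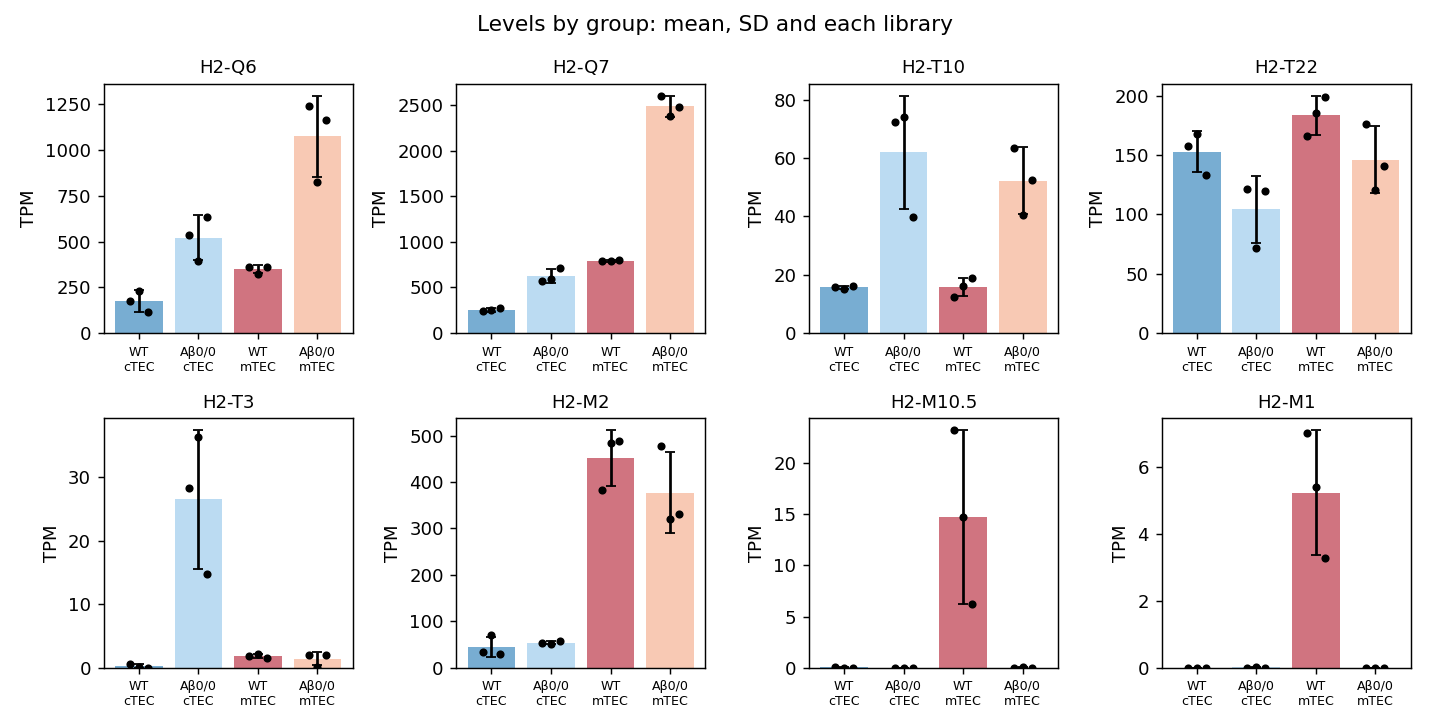
TPM of 8 class I genes by group, with the mean as a bar from 0, the SD as a whisker and each of the 3 libraries as a point. Within each subset H2-Q6, H2-Q7 and H2-T10 are higher in Aβ0/0 than in WT, H2-T3 is highest in Aβ0/0 cTEC (14.8 to 36.3 TPM), H2-M2 is higher in both mTEC groups than in both cTEC groups, and H2-M10.5 and H2-M1 are highest in WT mTEC.

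The vomeronasal class I genes were near absent from Aβ0/0 mTEC. H2-M1 and H2-M9 had no count in the 3 Aβ0/0 libraries against 336 and 138 counts in WT mTEC, which makes their mean CPM at least 37.0-fold and at least 15.5-fold higher in WT with a floor of 3 counts in each library. H2-M10.5 had 0, 2 and 0 counts in Aβ0/0 mTEC against 495, 530 and 208 in WT, a ratio of 600.0 with a 95% exact counting interval of 166 to 4960.0. These 3 genes reached the count filter in no Aβ0/0 mTEC library, so that their passing the test adds nothing to these counts. H2-M10.1 had 30, 0 and 0 counts in Aβ0/0 against 200, 209 and 193 in WT and did not pass (log2 fold change 4.11 ± 1.97, edgeR adjusted p = 0.399), except without Aβ0/0 mTEC replicate 1, the library with the 30 counts (edgeR adjusted p = 0.0298). H2-M5 had a single high library, with 0, 231 and 1 counts in Aβ0/0 mTEC. Aire, which drives expression of tissue-specific genes in mTEC, was at 626, 275 and 243 TPM in WT and 111, 56.0 and 65.2 in Aβ0/0 mTEC, and its part in these values was not tested.

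H2-T24, at 8.41, 9.29 and 10.6 TPM in WT and 9.65, 20.3 and 15.6 in Aβ0/0 mTEC, had a log2 fold change of WT over Aβ0/0 of -1.31 ± 0.44, which passed with DESeq2 and not with edgeR (edgeR adjusted p = 0.19, DESeq2 adjusted p = 0.0442). H2-M2, H2-M3, H2-T23 and H2-T22 had log2 fold changes of WT over Aβ0/0 between 0.05 and 0.23 in mTEC, and none passed. Leaving out 1 of the 3 WT mTEC libraries or Aβ0/0 mTEC replicate 3 left 0 of the 6 calls, and leaving out Aβ0/0 mTEC replicate 2, or fitting all genes without a count filter, left 2 (H2-Q6 and H2-Q7). Calls over all genes fell with them, from 1054 to 0 without any 1 WT mTEC library and to 13 without Aβ0/0 replicate 3. They fell to 83 without Aβ0/0 replicate 2 and to 27 without a count filter. Without Aβ0/0 replicate 1 they rose to 2377, and 7 class I genes passed. Over the libraries left out in turn, the log2 fold changes of H2-Q6 and H2-Q7 ranged from -1.78 to -1.65. Between H2-K1 and H2-M2 on chromosome 17, 154 other genes were tested in mTEC, of which 6, with H2-Ab1 among them, were higher in WT and 0 higher in Aβ0/0. The shares over all 18636 genes tested were 5.32% higher in WT and 0.338% higher in Aβ0/0, so these counts are given as a description.

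Between genotypes in cTEC, 0 of 18 genes tested passed with edgeR, against 0.0194% of all 15432 genes tested. 5 of the 18 had an unadjusted p under 0.05, against 333 of all 15432 genes tested. DESeq2 called 4 (H2-T3, H2-Q6, H2-Q7 and H2-T10), all higher in Aβ0/0, against 0.395% of all genes in either direction. The CPM of the libraries did not overlap and were lower in WT for 7 of the 18 genes, against 3.68% of all genes, and were higher in WT for 3 (H2-T23, H2-T22 and H2-M3), against 3.96%. The median log2 fold change of WT over Aβ0/0 was -0.44 over the 18 genes and 0.06 over all genes. H2-T3 reached the count filter through the Aβ0/0 libraries, where it is high, and H2-Q3 reached it in 1 WT and 2 Aβ0/0 libraries. H2-T3 is among the genes counted here, so these counts are a description. Among the other 16 genes, 0 passed with edgeR and the median was -0.33.

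H2-T3 in cTEC had 12, 3 and 1 counts in WT and 497, 1238 and 668 in Aβ0/0. It reached the count filter only through the Aβ0/0 libraries, so its fitted difference is set in part by the filter (log2 fold change -6.83 ± 1.03, edgeR adjusted p = 0.19, DESeq2 adjusted p = 2.97e-13). Of its counts in Aβ0/0 cTEC, 11.4% to 26.7% fell on protein-coding transcripts and the rest on retained-intron and nonsense-mediated decay transcripts. A coding transcript of 205 bases, whose short length raises its TPM, gave 14.5 of the 28.2 TPM in replicate 1. Of the 31-base stretches of H2-T3, 95.6% occur in no other gene. H2-T10 was at 15.8, 15.1 and 16.0 TPM in WT and 72.2, 74.2 and 39.7 in Aβ0/0 cTEC (log2 fold change -1.77 ± 0.36, edgeR adjusted p = 0.663, DESeq2 adjusted p = 0.00151). As in mTEC, its sum with H2-T22 did not differ beyond its error (0.06 ± 0.25, edgeR adjusted p = 1).

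H2-Q6 and H2-Q7 were higher in all 3 Aβ0/0 cTEC libraries than in any WT cTEC library. Their log2 fold changes of WT over Aβ0/0 were -1.55 ± 0.28 and -1.12 ± 0.28 (edgeR adjusted p = 0.483 and 0.695, DESeq2 adjusted p = 8.13e-06 and 0.00609). H2-M3, at 103, 100.5 and 81.9 TPM in WT and 49.3, 45.8 and 65.2 in Aβ0/0 cTEC, lay on the other side without overlap (0.91 ± 0.28, edgeR adjusted p = 1). The thymocyte markers given above were also higher in Aβ0/0 cTEC, and their part in these values was not tested.

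Whether the genotype difference itself differed between mTEC and cTEC was fitted on all 12 libraries. 0 of 23 genes passed with edgeR, against 0.0103% of all 19461 genes tested. 2 of the 23 had an unadjusted p under 0.05, against 1343 of the 19461. DESeq2 called 1, H2-T3, against 1.38% of all genes. The WT over Aβ0/0 difference of H2-T3 was higher in mTEC than in cTEC by 7.75 ± 1.45 on the log2 scale (edgeR adjusted p = 0.235, DESeq2 adjusted p = 2.97e-07). For H2-Q6, H2-Q7 and H2-T10 the same term was -0.13 ± 0.29, -0.60 ± 0.29 and 0.18 ± 0.44, and none passed.

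The partners of class I heavy chains were followed with a list of 40 genes, with the light chain, transcription factors of class I genes, genes of peptide supply and loading and class I-like genes outside the MHC. B2m, the gene of β2-microglobulin, was at 7765, 10926 and 13449 TPM in WT cTEC, 7769, 11393 and 11845 in Aβ0/0 cTEC, 14410.2, 19146 and 18532 in WT mTEC and 11816, 22371 and 16781 in Aβ0/0 mTEC, and did not pass in any comparison. In WT, 3 of the 40 genes were higher in mTEC, against 18.0% of all genes tested, and 7 were lower, against 8.81%. The higher ones were the NKG2D ligand genes Raet1d and Raet1e, with at most 3 counts in any WT cTEC library and thus tested only through WT mTEC, and the class I-like gene Mill1. Among the lower ones were Psmb11, the catalytic subunit of the thymoproteasome of cTEC (log2 fold change -4.36 ± 0.36, edgeR adjusted p = 0.000398), Psmb9 of the immunoproteasome (-1.09 ± 0.28, edgeR adjusted p = 0.021), the peptide-trimming Erap1 and Nfkb1 (-1.67 ± 0.21, edgeR adjusted p = 0.0016), together with the class I-like genes Fcgrt, Mr1 and Hfe. In Aβ0/0, 35 were tested, 1 was higher in mTEC, against 3.45% of all genes, and 4 were lower, against 2.15% (Psmb11, Nfkb1, Irf1 and Fcgrt).

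The higher one was Nlrc5, the transactivator of class I genes, at 9.86, 9.61 and 28.1 TPM in Aβ0/0 cTEC and 55.9, 38.5 and 51.1 in Aβ0/0 mTEC (log2 fold change 2.15 ± 0.37, edgeR adjusted p = 0.0196). In WT it was at 10.7, 13.0 and 11.2 TPM in cTEC and 25.6, 20.1 and 23.2 in mTEC (0.93 ± 0.36, edgeR adjusted p = 0.101). Between genotypes 0 of the 39 partner genes tested in mTEC and 0 of the 37 tested in cTEC passed with edgeR. Over all genes, 5.32% were higher in WT and 0.338% higher in Aβ0/0 in mTEC, and 0.0194% passed in cTEC. The mTEC libraries of Nlrc5 did not overlap between genotypes (log2 fold change of WT over Aβ0/0 -0.82 ± 0.26, edgeR adjusted p = 0.178).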

How the data were processed

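RNA of 12 libraries was analysed, 3 for each of 4 groups. The authors trimmed reads with Trim Galore, made the deposited estimated counts with kallisto 0.43, which assigns reads to transcripts and can split reads between near-identical genes, and made the deposited TPM from them with the effective transcript length. The authors also deposited a table of log2 values (rlog, made with DESeq2 from all libraries), of which only the gene names were used. The aligned annotation was taken as GENCODE M21 (GRCm38), to which 107987 of 109282 transcripts matched.

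Counts were summed over transcripts of 34547 genes and rounded, and TPM were summed. Groups were compared in edgeR 4.0.16 by quasi-likelihood F tests (TMM, filterByExpr, R 4.3.3) on the libraries of the 2 groups compared, and the interaction on all 12, with Benjamini-Hochberg adjusted p over all genes tested and a threshold of 0.05. Replicates are separate pools of mice, so p-values measure the spread between pools. DESeq2 1.42.0 was an alternative, and others are listed with the closing section. The fits were tested on simulated data. Near-identical genes were those whose protein-coding transcripts matched with BLAST 2.17.0 at 95% identity or more over at least 80% of the shorter one. Genes tested in at least 1 comparison and at a group mean of 1 TPM or more are described by library, and the others by counts. Figures were drawn with matplotlib 3.10.9.

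The naming rule of the members uses no measured value, but the gene family and the lists of partner and marker genes were chosen with earlier results of these data known. cTEC and mTEC of one genotype and number were taken to come from the same pool, because the study lists their yields under one replicate number. The labels give the number alone. It was used as a block between subsets. The deviations of such pairs from their group means correlated at 0.279, 0.0168 and 0.126 in WT and 0.285, 0.136 and 0.0403 in Aβ0/0.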

Additional observations from a re-analysis of the deposited data

Results flagged for a closer look

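H2-T3 stood out because its difference between subsets had opposite signs in the 2 genotypes, as did its difference between genotypes in the 2 subsets. In WT its log2 fold change of mTEC over cTEC was 3.73, with each mTEC library above each cTEC library, and in Aβ0/0 it was -4.02, with each mTEC library below each cTEC library. The WT over Aβ0/0 difference was 0.86 ± 0.95 (SE) in mTEC (edgeR adjusted p = 0.782), within its error of 0, where the CPM of the libraries did not overlap while their TPM did, and -6.83 in cTEC. The difference of these differences did not pass with edgeR (adjusted p = 0.235) and passed with DESeq2 (adjusted p = 2.97e-07). In each comparison H2-T3 reached the count filter in all 3 libraries of the higher group only (12, 3 and 1 counts in WT cTEC), so these fitted values are set in part by the filter. With the pool as a block its subset differences did not pass with edgeR (adjusted p = 0.0685 in WT and 0.137 in Aβ0/0).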

How the results depend on the processing

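Between the WT subsets, 8 to 14 class I genes passed when 1 library was left out, 15 with DESeq2 and 9 with the replicate block, against 12 in the fit reported. With near-identical genes summed, 10 of 19 passed. Over all genes, 3395 to 7572 passed when 1 library was left out, 6295 with DESeq2 and 3820 with the block, against 4997. H2-Q1, H2-Q5, H2-T3 and H2-M5 no longer passed without WT mTEC replicate 1, H2-Q1, H2-T3 and H2-M5 without replicate 2, H2-Q1, H2-Q5 and H2-T3 without replicate 3, and H2-T3 without WT cTEC replicate 2. Between the Aβ0/0 subsets, 5 genes became 3 with a mean of at least 10 counts as the filter, 8 with DESeq2 and 2 when any 1 library was left out. Over all genes, 878 became 644, 2042 and 338 to 456 in these fits. Between genotypes in mTEC, 6 became 2 without a count filter, 2 with a mean of at least 10 counts, 2 in a fit on all 12 libraries, 7 with DESeq2 (with H2-T24) and 0 to 7 when 1 library was left out. Over all genes, 1054 became 27, 11, 20, 1782 and 0 to 2377 in these fits. With near-identical genes summed, 4 of 19 class I genes passed. In cTEC, 0 became 1 without a filter (H2-T3), 4 with DESeq2 and 1 in the fit on all 12 libraries (H2-Q6), and 1 gene passed the interaction with DESeq2. Over all genes, 3 became 7, 61 and 16 in these cTEC fits. The interaction went from 2 genes in the fit reported to 268 with DESeq2. The causes were not tested. WT and Aβ0/0 libraries of one number share no origin in the labels, but the study lists their sorting yields under one replicate number. Their deviations correlated at 0.317, 0.138 and 0.0709 in mTEC and 0.301, -0.104 and 0.02 in cTEC. With that number as a replicate block, 0 class I genes passed between genotypes in mTEC, 0 in cTEC and 0 in the interaction. Over all genes tested, 0 passed in each of these fits too. The classical share moved to 69.8% in Aβ0/0 cTEC, 74.5% in WT mTEC and 62.7% in Aβ0/0 mTEC with protein-coding transcripts only, and to 74.5% in WT mTEC on CPM. Signs turned only among log2 fold changes that had not passed, when 1 library was left out. H2-T23 between the Aβ0/0 subsets ranged from -0.20 to 0.089, with 0.037 without cTEC replicate 2. Between genotypes in mTEC, H2-K1 ranged from -0.099 to 0.015 (0.013 without Aβ0/0 replicate 2), H2-T23 from -0.13 to 0.21 (-0.020 without WT replicate 2 and -0.023 without replicate 3) and H2-M3 from -0.0090 to 0.39. The interaction ranged from -0.28 to 0.074 for H2-Q6 and from -0.091 to 0.45 for H2-T10.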
